A study of Mus musculus with 6 samples.

Results

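The copy number of the NIH3T3 genome was read from the background tags of ChIP-seq libraries, by setting a control library of NIH3T3 cells against a control library of mouse embryos. The members were the autosomal bins of 1 Mb that held at least 1000 tags of the embryo library, which were 2390 of 2482 bins on 19 autosomes. The ChIP-seq part of the study asked where the transcription factors Bapx1 (Nkx3-2) and Sox9 bind in the developing vertebral column. It comprised 6 libraries with 1 per condition. The first pair set NIH3T3 cells pulled down with V5 antibody, the V5 control, over wildtype CD1 vertebral column at E12.5 pulled down with S-peptide antibody. The second pair set NIH3T3 cells that overexpressed V5-tagged Bapx1 over E12.5 vertebral column of CD1 embryos whose endogenous Bapx1 carried an S-peptide tag. Tags under the peaks of either Bapx1 library were left out of this pair. The labels describe the V5 control both as cells transfected with empty pcDNA6 vector and as wild type 3T3, and the word input stands in the titles of both control libraries although each was an immunoprecipitation. The library labelled V5 control also held an excess of tags over the coding sequence of Bapx1, which goes against its labels. Embryos of a library were pooled. Tags of genomic DNA give no expression, so the labelled cell types were not checked against marker genes. Overexpression in NIH3T3 cells came from a transfected plasmid. There was 1 library per group, so there is no measure of variation between cultures or embryos. All comparisons describe these libraries, intervals cover counting error only, and no test between groups was made.

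NIH3T3 is an immortal line of mouse embryonic fibroblasts, and such lines commonly carry whole-chromosome gains and losses in a genome that is no longer diploid. In a library without enrichment the number of tags from a region follows the number of its copies in the cells, so the ratio of such a library to a normal one, scaled to the total, gives copies relative to the genome's average but not their absolute number. Fibroblast lines often lose Cdkn2a, whose products p16 and p19Arf hold back the cell cycle and stabilise p53. NIH3T3 cells are known to lack this locus.

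The Cdkn2a locus was nearly empty of NIH3T3 tags, and the reference sequence at the limits of the nearly empty stretch is shown here. It gives the NIH3T3 tags that bound the stretch on mm9, while the few tags inside were passed over. On each line the capitals are the 35 bases of the NIH3T3 tag at that limit. The lower case letters are the 25 reference bases next to it on the side of the loss, and both are on the plus strand.
Left limit, chr4:88893206-88893265: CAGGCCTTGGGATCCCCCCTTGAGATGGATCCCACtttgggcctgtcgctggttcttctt
Right limit, chr4:89058020-89058079: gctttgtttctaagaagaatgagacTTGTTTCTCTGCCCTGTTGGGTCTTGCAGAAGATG
The left limit lay in the noncoding gene Gm12606 and the right limit in the lincRNA Gm12609, in both cases outside exons of the annotation. These are reference bases and not a sequenced junction.

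Between these limits lay chr4:88893241-89058044, 164.8 kb of which 51.2 kb is unknown sequence in the assembly. The V5 control had 4 tags there and the V5-Bapx1 library had 1, whereas the wildtype embryo library had 975 and the Bapx1 embryo library had 1147. The log2 ratio was -7.21 in the first pair (95% interval -9.09 to -5.85) and -8.70 in the second, where tags under peaks were kept (-14.00 to -6.21). Scaled to the totals, the level of the V5 control was 0.674% of that of the embryo, with an interval from 0.183% to 1.73%. Over the 500 kb on either side the V5 control had 6213 tags and the embryo 6952, a log2 ratio of 0.55 (0.50 to 0.60). Thus the nearly empty stretch stood within sequence that was above the average of the NIH3T3 genome.

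The tags that bound the stretch in the 2 NIH3T3 libraries were close to each other. A run was taken to end at 3 tags within 1 kb, so the few tags inside did not end it. The last tag before the loss ended at base 88893240 in the V5 control and at base 88892664 in the V5-Bapx1 library, and the first tag after it started at 89058270 and at 89058045. The 2 kb inside the left limit held 15 tags of the wildtype embryo and 8 of the Bapx1 embryo, and the 2 kb inside the right limit held 19 and 14.

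Cdkn2a (chr4:88920377-88940557, minus strand) had 2 tags in the V5 control and 0 in the V5-Bapx1 library, against 184 and 201 in the wildtype and the Bapx1 embryo libraries. Its neighbour Cdkn2b, which encodes the cell cycle inhibitor p15, lies at chr4:88952198-88956941 and had 0 tags in both NIH3T3 libraries, against 61 and 63 in the embryos. At a floor of 3 tags per library, counts of 0 over Cdkn2b allow a level of up to 8.08% of the wildtype embryo's in the V5 control and of up to 13.2% of the Bapx1 embryo's in V5-Bapx1. Mtap, the enzyme that salvages methylthioadenosine and the next protein-coding gene to the left (chr4:88783026-88826985), kept its tags. It had 431 in the V5 control, 379 in V5-Bapx1, 406 in the wildtype embryo and 473 in the Bapx1 embryo, a log2 ratio of 0.80 in the first pair. The plot of tags around Cdkn2a shows these steps in each library.

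**Figure D1:**
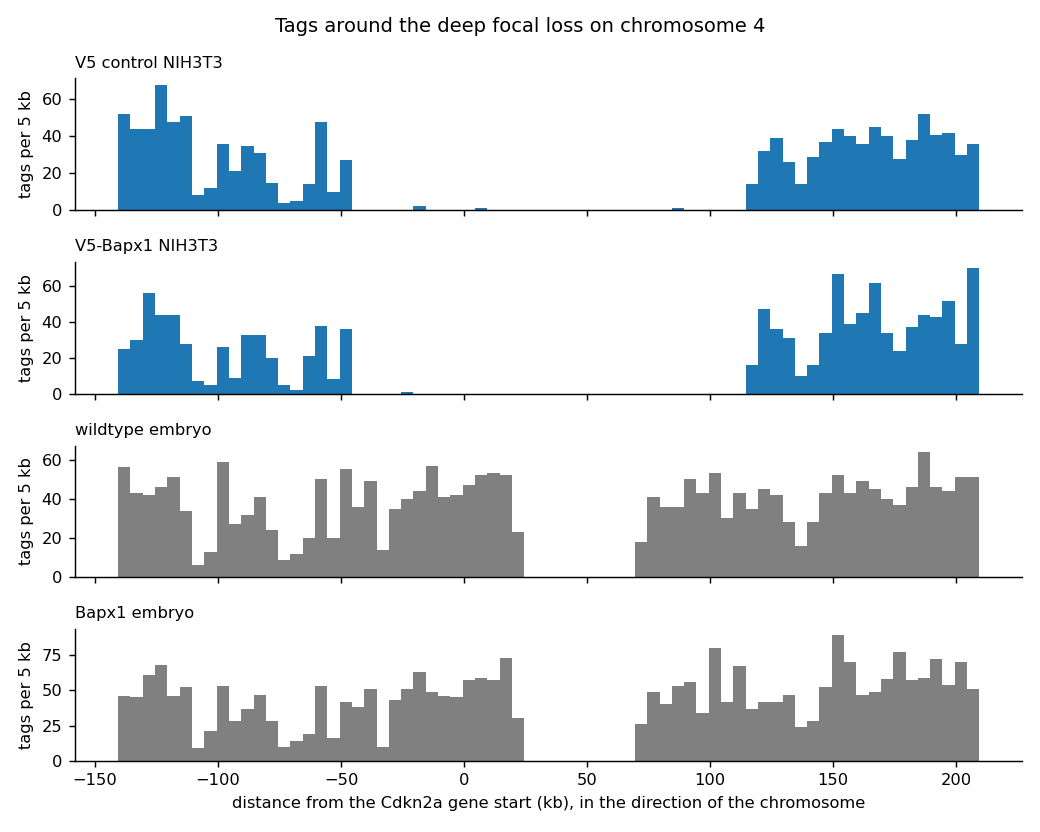
Tags per 5 kb (y axis, 1 tag per position and strand) against the distance from the Cdkn2a gene start in kb, in 4 libraries. Both NIH3T3 libraries (blue) are nearly empty over the 164.8 kb of the loss where both embryo libraries (grey) have tags, and all 4 are empty over the unknown sequence in its middle.

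At the opposite end of the range, a stretch of 3850 kb near the start of chromosome 9 was present in many more copies in NIH3T3 cells than the rest of the genome. Its limits fell at 6545000 and 10395000 in bins of 1 kb, in the same bin in both pairs. Over the 5 kb inside the left limit the V5 control had 203 tags and over the 5 kb outside it 20, and the V5-Bapx1 library had 149 and 18. The wildtype embryo had 48 and 48 tags in the same windows, and the Bapx1 embryo 44 and 52, so no step was seen in the embryo libraries. At the right limit the V5 control went from 217 tags inside to 27 outside, and V5-Bapx1 from 167 to 11.

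Inside, the log2 ratio was 3.06 ± 0.11 in the first pair (SD over 76 bins of 50 kb, range 2.80 to 3.36), a scaled ratio of 8.32. In the second pair it was 3.26 ± 0.19 (range 2.89 to 3.76), a ratio of 9.59. The flanks were at -0.33 ± 0.19 in both pairs (58 bins each), so the stretch stood 10.5-fold above its flanks in the first pair and 12.02-fold in the second. The first part and the second part of the stretch, split at its middle, had means of 3.08 and 3.03 in the first pair, so the level was nearly flat along it. It took 1.14% of the autosomal tags of the V5 control and 0.137% of those of the wildtype embryo.

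The stretch overlapped 28 protein-coding genes of the annotation. Yap1 is the transcriptional coactivator at the end of the Hippo pathway. Over its gene the V5 control had 3917 tags and the wildtype embryo 736, a log2 ratio of 3.13 in the first pair. V5-Bapx1 had 4047 and the Bapx1 embryo 818. Tags under peaks were kept in these counts over genes. Birc2 and Birc3 encode the inhibitors of apoptosis cIAP1 and cIAP2. Birc2 had 837 tags in the V5 control and 155 in the wildtype embryo (3.15), and Birc3 had 1277 and 242 (3.12). The matrix metalloproteinase genes of the cluster, secreted enzymes that cleave collagens and other matrix proteins, lay inside as well, among them Mmp13 with 495 tags against 73 (3.48), Mmp3 with 438 against 79 (3.19) and Mmp12 with 987 against 197 (3.04). The other genes included Dync2h1, the motor of retrograde transport in cilia (9608 against 1807, 3.13), Pgr, the progesterone receptor (3008 against 648, 2.93), and Trpc6, a cation channel (4599 against 989, 2.93). Cntn5, a neural cell adhesion gene that runs across the right limit, had 28671 tags against 9368, a log2 ratio of 2.33 over the whole gene. These are numbers of tags from genomic DNA and say nothing of the expression of the genes.

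A separate short gain stood 1365 kb to the left. Over chr9:5150001-5180000 the V5 control had 981 tags, V5-Bapx1 1092, the wildtype embryo 238 and the Bapx1 embryo 271, with a log2 ratio of 2.76 (2.55 to 2.97) in the first pair. Tags under peaks were kept in these counts. Outside peaks, the bin of 50 kb that holds this gain had 763 V5-Bapx1 tags and 374 Bapx1 embryo tags. No gene of the annotation overlaps the 30 kb. Its limits were chosen after its values were seen, and at 50 kb it is a single bin, below the run of 2 bins required of a focal change.

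**Figure D2:**
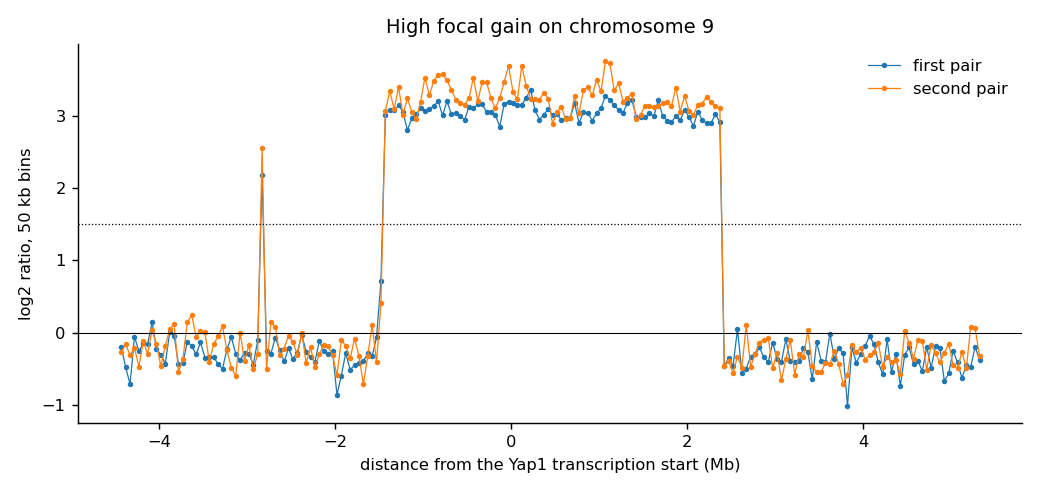
Log2 ratio in bins of 50 kb (y axis) against the distance from the Yap1 transcription start in Mb, for the first and the second pair of libraries. Both pairs step up and down at the same bins around a plateau near 3.06 and 3.26, and the single high bin to the left is the short gain of 30 kb. The dotted line marks 1.5, the limit for a high gain.

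The search for focal changes covered the 46925 autosomal bins of 50 kb with at least 100 embryo tags in each pair. A log2 ratio of -3 or less in both pairs was found in 7 bins (0.0149% of the bins), and 1 run of 2 or more such bins came out, the loss at Cdkn2a. A ratio of 1.5 or more in both pairs was found in 78 bins (0.166%), and again 1 run came out, the gain around Yap1. The single deep bins were chr3:24300001-24350000, with 1 V5 tag against 305 of the wildtype embryo and 3 against 395 in the second pair, chr14:44050001-44100000, with 1 against 158 and 0 against 189, and 2 bins on chromosome 12 that are described with that region. They were singled out after their values were seen. In bins of 25 kb, the stretch on chromosome 3 was a run of 2 bins.

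On the scale of whole chromosomes, NIH3T3 cells had relatively fewer copies of chromosomes 13, 14 and 18, most of 9 and 16, the ends of 4 and the end of 7, and relatively more of the middle of 4, of the start of 1 and of chromosome 19. A bin was called gained at a log2 ratio of 0.2 or more, and 260 bins were (10.9%). It was called lost at -0.2 or less, and 618 bins were (25.9%). The median bin held 4986.5 tags of the V5 control and 8532.5 of the wildtype embryo, so counting alone gave a standard error of 0.026 in log2, and the noise estimated from adjacent bins had an SD of 0.051. The SD over all bins was 0.26.

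Joining neighbouring bins by their level gave 30 segments, of which 5 were gained, 11 lost and 14 neither. One lost segment, on chromosome 2, rests on a high level in the embryo libraries and is described apart. Of the 19 autosomes, 12 were a single segment. In the second pair, 4 of the 5 gained and 10 of the 11 lost segments passed the same limits, and all 16 called segments had the same sign. The segment on chromosome 2 was among these 10, at -0.37 in the second pair. A high level shared by both embryo libraries thus passes this check as well as a loss in NIH3T3 cells does. The 24 segments of 20 or more bins differed between the pairs by a median of 0.030 in log2 and by at most 0.12. The pairs have no library in common by their labels, but both NIH3T3 libraries are from the same line, and the library labelled V5 control held tags of the Bapx1 coding sequence that its label does not account for (described with Nkx3-2), so the second pair may not be separate from the first.

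**Figure D3:**
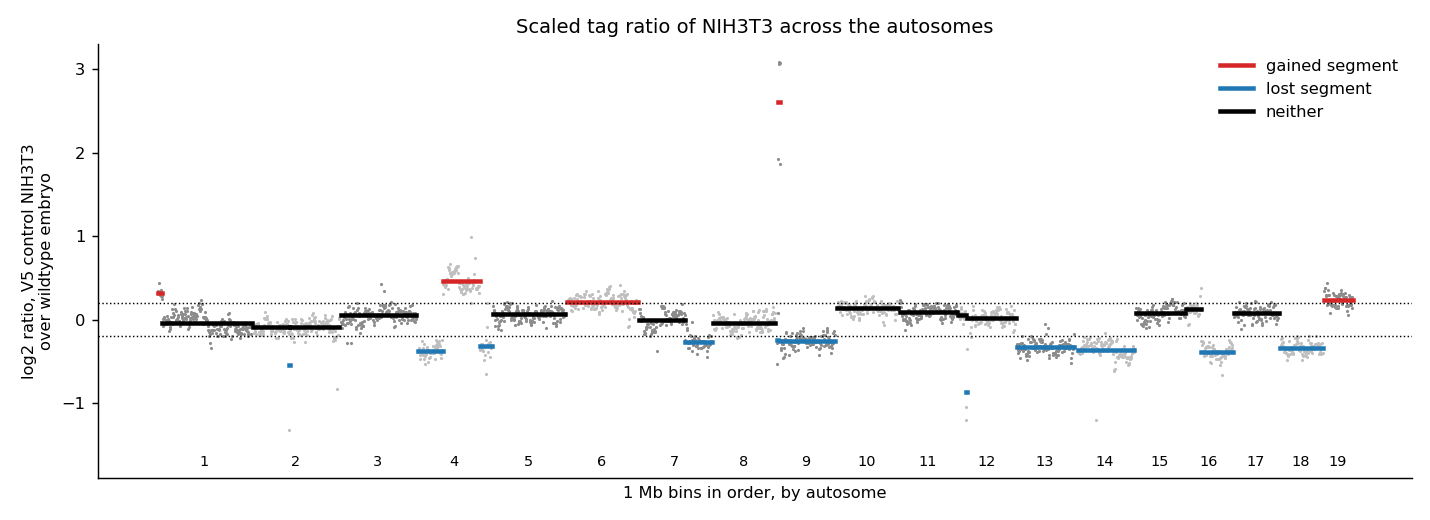
Log2 ratio of the V5 control over the wildtype embryo for each bin of 1 Mb (grey points) along the autosomes, numbered below, with segment means as lines coloured by call. The segment means of chromosomes 13, 14 and 18 lie below the dotted line at -0.2, that of the middle of chromosome 4 lies above the line at 0.2, and the gain on chromosome 9 reaches 3.09.

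Chromosome 4 was divided into 3 long segments. Its first 51 bins had a mean log2 ratio of -0.37 ± 0.07 (SD over bins) in the first pair and -0.34 in the second, the 76 bins from 54 to 131 Mb had 0.47 ± 0.12 and 0.40, and the last 25 bins had -0.32 ± 0.15 and -0.44. In linear terms these were ratios of 0.772, 1.38 and 0.801. All 76 bins of the middle segment were above 0.2, and the loss of Cdkn2a lay within it. The limits on chromosome 4 were placed at 53.9 and 131.05 Mb in the first pair, and the second pair placed them at 54.5 and 130.5 Mb.

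Chromosome 16 was at 0.12 ± 0.08 over its first 30 bins and at -0.38 ± 0.08 over the 66 bins that followed, with -0.33 in the second pair. The step was placed at 32.9 Mb in the first pair and at 32.95 Mb in the second. Chromosome 7 was at -0.0025 up to 98 Mb, and from there at -0.27 ± 0.08 over 55 bins, with -0.30 in the second pair. This step was placed at 98.3 and 98.25 Mb. Chromosome 1 was gained over its first 10 bins, from 3 to 13 Mb, at 0.32 ± 0.05 in the first pair and 0.32 ± 0.12 in the second. The end of this gain was less certain, as the pairs placed it at 12.9 and 11.65 Mb. Beyond it the chromosome was at -0.04 ± 0.10 in the first pair and -0.07 ± 0.17 in the second. It was not level there, as its bins ran from -0.34 to 0.24 in the first pair.

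Of the undivided chromosomes, 13 was at -0.33 ± 0.08 (118 bins), 14 at -0.37 ± 0.12 (115 bins) and 18 at -0.34 ± 0.07 (88 bins), and in the second pair they were at -0.30, -0.39 and -0.31. Chromosome 9 beyond 11 Mb was at -0.26 ± 0.07 (113 bins) and -0.25. The 8 lost segments of 20 or more bins had ratios between 0.767 and 0.837. Chromosome 19 was at 0.24 ± 0.08 (59 bins) in the first pair and 0.24 in the second, but with the totals of the IgG embryo library as denominator it was at 0.19, below the limit.

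Some segments stood near the limit. Chromosome 6 had a mean of 0.21 ± 0.08 (147 bins) and was called gained, but it was at 0.16 in the second pair and did not pass there. Chromosome 10, at 0.14 ± 0.06 (127 bins), was not called, but it was at 0.20 in the second pair. Among the lost segments of 5 or more bins the nearest to the limit was chromosome 9 beyond 11 Mb, and among those not called the lowest was the start of chromosome 2, at -0.09. For chromosome 9 the ratio of all tags, 0.05 in log2, was far from its median bin, since the high gain holds many of its tags.

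**Figure D4:**
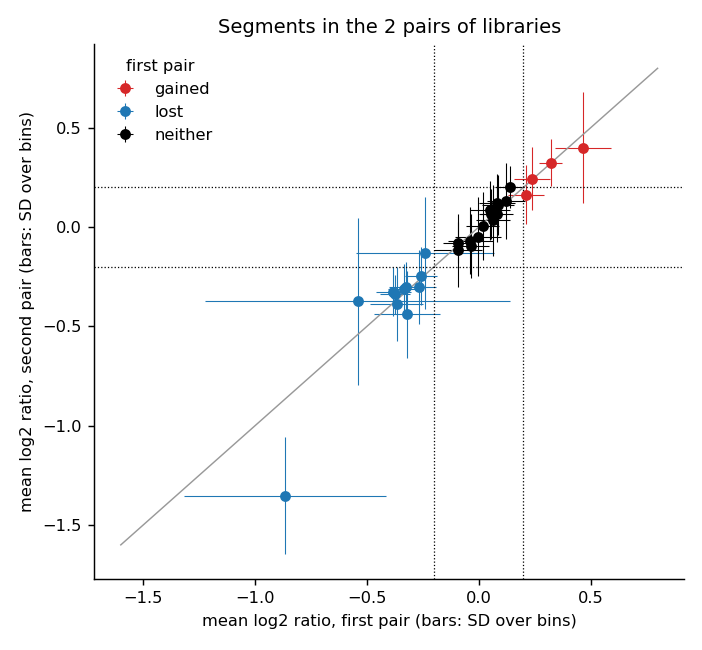
Mean log2 ratio of each segment in the first pair (x axis) and in the second pair (y axis), with bars for the SD over bins, coloured by the call in the first pair. The high gain on chromosome 9 is left out for scale. The long segments lie close to the grey line of equal values, and the points away from it with long bars are segments of 3 bins.

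The same limits were applied to pairs of libraries from the same cell line or tissue. The Bapx1 embryo over the wildtype embryo library, outside peaks, had 12 gained bins of 2389 (0.502%) and 5 lost (0.209%). Of its 23 segments 2 were called gained, each of 3 bins. The segment from 111 to 114 Mb of chromosome 4 had 18306 tags outside peaks in the Bapx1 embryo and 9065 in the wildtype embryo, and the other, from 68 to 71 Mb of chromosome 6, had 18766 and 13517. The first holds 11 genes of the Skint family, which encodes membrane proteins of the skin and thymus, and it lies inside the gained middle of chromosome 4. With tags under peaks kept, the Bapx1 and the wildtype embryo libraries were at 0.632 and 0.377 times their autosomal means there and the NIH3T3 libraries at 0.524 and 0.501, so the log2 ratio was 0.48 in the first pair and -0.33 in the second. Over the whole gained segment the SD of the second pair was 0.28, against 0.12 in the first. The V5-Bapx1 over the V5 control library of NIH3T3 cells had 56 gained bins of 2379 (2.35%) and 150 lost (6.31%), and no segment of that pair was called. For the second pair itself the counts were 441 gained (18.4%) and 663 lost (27.7%) of 2394, with an SD between adjacent bins of 0.11. Of the bins gained in the first pair 78.1% were gained in the second, and of the bins lost 80.1% were lost in it. There were 5 bins gained in the first pair and lost in the second, and 0 bins lost in the first and gained in the second. Conversely, 46.0% of the bins gained in the second pair and 75.0% of those lost in it were so in the first. Across 2390 bins the ratios of the pairs had a Pearson r of 0.89 and a Spearman rho of 0.87. With the bins of the high gain on chromosome 9 left out, the Pearson r was 0.86. Bins of a chromosome share its copy number and are not independent, so this is a description.

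There were 3 called segments of 3 bins each. The segment on chromosome 2 from 77 to 80 Mb was called lost at -0.54 ± 0.68, but the NIH3T3 libraries did not fall there. Over chr2:77700001-77850000 the V5 control had 697 tags, 0.947 times its autosomal mean, and V5-Bapx1 530, 1.01 times its mean. The wildtype embryo had 12551 tags, 10.4 times its mean, and the Bapx1 embryo 8624, 5.93 times its mean. Thus the embryo libraries were high and the NIH3T3 libraries were at their mean, and the call is not a loss in NIH3T3 cells. The flank to the left was between 1.01 and 1.14 times the mean in all 4 libraries.

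Cwc22, a splicing factor that lies within this stretch (chr2:77719216-77784432) and was singled out after the values were seen, had 339 tags in the V5 control and 253 in V5-Bapx1, against 6876 in the wildtype and 4577 in the Bapx1 embryo libraries. The region that holds Cwc22 is known to vary in copies among mouse strains. Scaled to their means, the level of the wildtype embryo over the 150 kb was thus above that of the Bapx1 embryo.

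**Figure D5:**
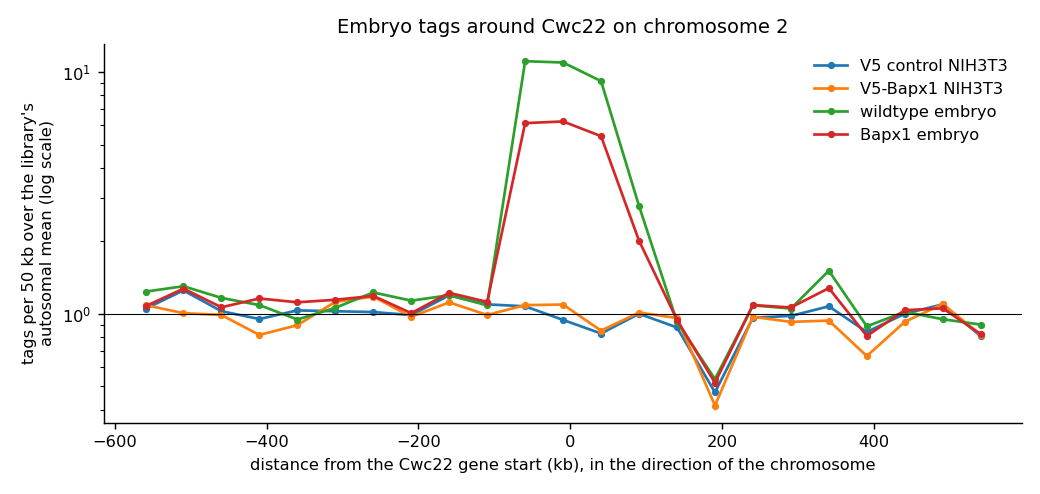
Tags per 50 kb divided by the autosomal mean of the library (y axis, log scale) against the distance from the Cwc22 gene start in kb, in 4 libraries. Both embryo libraries rise to several times their mean around Cwc22, to 10.4 and 5.93 times over 150 kb, while both NIH3T3 libraries stay near 1.

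The segment on chromosome 12 from 18 to 21 Mb was sparse in every library, with 0.343 and 0.307 times the mean in the wildtype and Bapx1 embryos and 0.190 and 0.117 times in the V5 control and V5-Bapx1. Its mean log2 ratio was -0.87 ± 0.45 in the first pair and -1.35 in the second. The NIH3T3 libraries themselves differed there, with a mean of -0.71 for V5-Bapx1 over the V5 control outside peaks. The deepest bins of 50 kb within it had 5 V5 tags against 134 embryo tags and 2 against 133. The first segment of chromosome 9, from 3 to 6 Mb, was at -0.24 ± 0.31 and did not pass in the second pair, where it was at -0.13. Its bins ran from -0.53 to 0.08, and the highest of them holds the short gain of 30 kb.

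Genes that hold back growth lay in lost segments at a share near that of all genes. Of the 28 on the list of inhibitors, 7 lay in lost segments (25%) and 7 in gained ones, against 25.4% and 12% of 21415 protein-coding genes on the autosomes. The lost ones included Rb1, which restrains entry into S phase (chromosome 14, log2 ratio over the gene and 100 kb on either side -0.29 in the first pair and -0.13 in the second), Apc, the scaffold that targets beta-catenin for destruction (-0.36 and -0.24), and Atm, the kinase that signals DNA breaks (-0.20 and -0.06). Cdkn2a and Cdkn2b counted as gained by their segment although both NIH3T3 libraries together had 2 tags over Cdkn2a and 0 over Cdkn2b. Trp53 lay on chromosome 11, which was not called (0.07 and 0.23).

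Of 42 genes that promote growth, 10 lay in gained segments (23.8%) and 7 in lost ones (16.7%), beside the same 12% and 25.4% of all protein-coding genes. The gained ones included Yap1, Birc2 and Birc3 of the high gain. Also gained was Jun, a subunit of AP-1, on the middle of chromosome 4 (0.47 and 0.75, beside 0.47 and 0.40 for the segment). Met, the receptor of hepatocyte growth factor, lay on chromosome 6 (0.28 and 0.55), whose mean of 0.16 did not pass in the second pair. Genes of uncalled segments differed between the pairs as well, upwards at Stk11 (0.19 and 0.64) and Cdk4 (0.18 and 0.42) and downwards at Kit (0.12 and -0.17). The second value of a single gene thus need not follow its segment. Ccnd1, which encodes cyclin D1, lay in the lost end of chromosome 7 (-0.22 and -0.16). Of 20 genes of the fibroblast matrix, 1 was in a gained segment (5%) and 2 were in lost ones (10%), Thy1 and Pdgfrb. Over the gene and 100 kb on either side neither reached -0.2, with Thy1 at -0.13 and 0.15 and Pdgfrb at -0.18 and -0.15. The gained one was Col1a2 on chromosome 6, which did not pass in the second pair. Of 26 genes of cartilage and of the study's factors, 3 were gained and 3 lost (11.5% each), the latter including Sox6 and Runx3. Membership of a list and of a segment are not independent, since neighbouring genes share a segment.

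The number of V5-Bapx1 peaks differed with the state of the bin. Gained bins held 3951 peaks in 260 Mb, or 15.2 per Mb, bins called neither held 10.1 per Mb, and lost bins held 3695 peaks in 618 Mb, or 5.98 per Mb. Without the 5 bins of the high gain, gained bins still held 14.6 per Mb. The median fold enrichment of the peaks was 12.4 in gained, 13.6 in neither and 14.5 in lost bins. Over the peaks, the scaled ratio of V5-Bapx1 to V5 control tags was 3.72 in gained and 9.89 in lost bins, and 6.75 in gained bins without those of the high gain. The bins were called from tags of the V5 control, which is also the denominator of this ratio and the control of the fold enrichment, so their order is in part set by that choice and is given as a description only. The high gain itself held 234 peaks in 3.85 Mb, or 60.8 per Mb, with a median fold enrichment of 7.58 against 13.6 over all autosomes and a median of 116.5 tags per peak against 13. Gained bins also had more starts of protein-coding genes, 11.6 per Mb against 8.11 in lost bins, and a GC content of 43.0% against 41.7%. Bins called neither were close to lost bins in both, with 8.63 starts per Mb and a GC content of 41.8%. The part of gene starts and GC content in the number of peaks was not tested.

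The coding sequence of Nkx3-2 itself, which encodes Bapx1, carried an excess of tags in both NIH3T3 libraries. Over its 999 coding bases V5-Bapx1 had 1826 tags at separate positions and strands, 1828 per kb against 4.09 per kb in the 50 kb on either side. The library labelled V5 control had 373, or 373.4 per kb against 5.69 per kb. The wildtype embryo had 13 and the Bapx1 embryo 21, or 13.01 and 21.02 per kb against 8.49 and 10.5. The rest of the gene, introns and untranslated exons, had 8.14 tags per kb in the V5 control and 3.43 in V5-Bapx1. With repeated tags kept, the coding sequence had 13003 tags in V5-Bapx1 and 424 in the V5 control. In V5-Bapx1, 1826 of the 1830 tags over exons lay in the coding sequence. Its cells were transfected to overexpress Bapx1, whereas the labels of the V5 control name no Bapx1 cDNA. The excess in the V5 control goes against its label. The source of the excess was not tested in either library. Whether the V5 control shares other tags with V5-Bapx1 was not tested. The tags over the coding sequence lie in 1 bin of chromosome 5, in a segment that was not called.

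The linear ratios of the segments did not fall on clearly separate steps. Among spacings from 0.15 to 0.6, evenly spaced levels came closest to the 26 segments of 5 or more bins below the high gain at a spacing of 0.26, with a mean distance of 0.17 spacings, against a median of 0.25 over all spacings tried. No copy number was assigned from this.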

How the data were processed

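ChIP-seq tags of 35 bp were analysed in 5 of the 6 libraries, with 1 library per group, and the Sox9 library was not used here. The authors deposited the positions of mapped tags, without normalization, on mm9 per the labels. The deposited tag totals were 13327426 for the V5 control, 9124697 for V5-Bapx1, 20704235 for the wildtype and 24855032 for the Bapx1 embryo libraries, and 13330825 for IgG. No position and strand was repeated in the embryo files, whereas 6.53% and 2.40% of the tags of the V5 control and V5-Bapx1 repeated one, so 1 tag per position and strand was kept. IgG positions end as on an older build than mm9, and only their totals per chromosome were used. The authors' peak lists from MACS (p cutoff 1e-05) give the count of tags in a peak, its fold enrichment as a ratio over the control, and an FDR in percent. By the study's methods the reads were mapped with the Illumina Genome Analyzer Pipeline, and uniquely mapped reads with few mismatches were kept.

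Tags were counted in bins of 1 Mb from position 0 and scaled to autosomal totals. Segments were fitted per chromosome by least squares with a penalty of 10 times the log of the number of bins times the squared noise, at least 3 bins per segment, and neighbours within 0.15 merged. The limit for a call was 0.2 in log2. Limits of segments were placed in bins of 50 kb by binomial likelihood within 1.5 Mb. Intervals are exact binomial (Clopper-Pearson) at 95%. Genes are from GENCODE M1, and sequences from NCBIM37 (mm9). The segmentation was tested on simulated data with long segments and steps well above the limit. That test did not cover segments of 3 bins or means near the limit. The members, gene lists and limits were chosen with earlier results of these data known. Named genes were members of the 4 fixed lists and genes within the focal changes, and Cwc22 and the Skint family were added after their values were seen. Some members of the lists are not reported here by name. Alternatives changed the libraries, the repeated tags, GC correction, centring, bin size, minimum, limits and penalty. Python 3.11.15 with numpy 2.4.6, pandas 2.3.3, scipy 1.17.1 and matplotlib 3.10.9 was used.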

Additional observations from a re-analysis of the deposited data

How the results depend on the processing

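The counts are in Mb of gained and lost bins and in segments, and in the main setting they were 260, 618, 5 and 11. No ratio of a called chromosome changed sign under the 6 alternatives run for chromosomes. The calls of all 19 were kept with all tags, with the Bapx1 embryo as denominator and with GC correction, and of 17 with V5-Bapx1 as numerator and in the second pair, where chromosome 6 was no longer called and 10 was. With IgG totals 16 were kept, as chromosome 19 fell to 0.19 while 7 (-0.21) and 10 (0.20) were called, and the uncalled chromosomes 1, 9 and 11 changed sign. Gained bins numbered 411 with V5-Bapx1 outside peaks as numerator, 441 in the second pair, 446 at a limit of 0.15 and 121 at 0.3, where lost bins numbered 395. Gained segments numbered 9 with all tags kept, 3 with V5-Bapx1 as numerator, 8 without a minimum of embryo tags and 3 at a limit of 0.3. Lost segments numbered 18 without a minimum. The cause of these differences was not tested. Deep focal losses were 4 runs in bins of 25 kb and 2 in the first pair alone, the second of these being the Cwc22 stretch where the embryo libraries were high. In bins of 25 kb the Cdkn2a loss came out as 2 runs, on either side of the unknown sequence, single deep bins on chromosomes 3 and 12 became runs, and the high gain was divided, giving 2 high gains. Chosen after seeing the data, totals without the chromosome 9 gain shifted all ratios by 0.015 in log2 and gave 299 gained and 597 lost bins, and without segments of under 6 bins 255 were gained. Limits set in bins of 1 kb for the chromosome 1 gain fell at 12883000 and 11661000 in the pairs. No paired analysis was possible because there was 1 library per group. Counting gave a standard error of 0.026 per bin in the first pair, below the noise of 0.051.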

Other observations

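Chromosome X, outside the autosomes described, had 317927 tags in the V5 control, 232961 in V5-Bapx1, 767380 in the wildtype embryo and 869482 in the Bapx1 embryo. Scaled to autosomal totals its log2 ratio was -0.56 in the first pair and -0.43 in the second. Chromosome Y had 1027 tags in the V5 control, 699 in V5-Bapx1, 2006 in the wildtype embryo and 3384 in the Bapx1 embryo, and its log2 ratio was -0.25 (95% interval -0.36 to -0.14) in the first pair and -0.81 in the second. The embryo libraries differed on it by 0.49 in log2, and the NIH3T3 libraries by -0.07.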
